A study of Rattus norvegicus with 6 samples.

Results

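The 5 genes described here encode transcription factors that cells switch on quickly under growth signals, injury or stress. They are Fos (ENSRNOG00000008015), Jun (ENSRNOG00000026293), Egr1 (ENSRNOG00000019422), Myc (ENSRNOG00000004500) and Atf3 (ENSRNOG00000003745). The genes were chosen by identifier, with earlier results of these data known. All 5 were found among the 23487 genes of the deposited count table. Bulk RNA was sequenced from kidneys of male Wistar Han rats, 3 after sub-total nephrectomy (SNx) and 3 non-operated (NoOp), with ribosomal RNA depleted. In the SNx animals part of the right kidney was resected and the left kidney was removed in a later operation. The SNx rats were killed once serum creatinine or urinary protein had passed a preset limit, so the time after surgery differed between animals, and their age is not given in the sources used here. The controls had no surgery, so loss of kidney tissue and the operation itself cannot be told apart.

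Immediate early genes such as Fos, Jun and Egr1 are transcribed without new protein synthesis, when kinase cascades reach factors already bound at their promoters. Fos and Jun proteins pair through leucine zippers to form AP-1, a factor that binds the promoters of growth and matrix genes. Egr1 is a zinc finger protein that responds to growth factors and mechanical strain. Myc pairs with Max and raises genes of ribosome production and cell growth. Atf3 is a leucine zipper protein of the ATF/CREB family that is low in resting tissue and is induced by many stresses, among them injury of the kidney tubule.

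Of the 5 genes, RefSeq promoter sequence was at hand for Egr1 alone. Egr1 is a textbook target of serum response factor, and whether this factor acted in these kidneys was not tested. The 250 bases before the Egr1 start, at chr18:26736828-26737077 on the plus strand of build GRCr8, are given 5′ to 3′, with capitals at each CArG box, the element that serum response factor binds.
Egr1: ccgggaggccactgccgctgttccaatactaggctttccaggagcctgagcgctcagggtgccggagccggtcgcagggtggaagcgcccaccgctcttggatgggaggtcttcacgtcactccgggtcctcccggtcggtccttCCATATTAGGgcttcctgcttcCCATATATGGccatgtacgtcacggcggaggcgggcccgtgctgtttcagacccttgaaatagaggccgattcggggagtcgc
The boxes lie 105 to 96 and 83 to 74 bases before the start. A CArG box was present on either strand in 1.5% of 33469 rat promoters of the same length, and 2 or more in 0.0209%. The letters TGACG form part of the cyclic AMP response element. They matched on the opposite strand, printed here as cgtca, 135 to 131 and 66 to 62 bases before the start. On either strand, they were found in 18.2% of the promoters. The whole element TGACGTCA, the AP-1 motif TGANTCA and the Egr motif GCGNGGGCG had no match in this window, and were found in 1.59%, 6.34% and 4.29% of the promoters. A match describes the letters and was not tested as a binding site.

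All 5 genes were higher in SNx kidney than in NoOp kidney. The fold change ran from 12.3 for Atf3 through 5.59 for Myc, 4.61 for Fos and 2.42 for Egr1 to 1.88 for Jun. Each gene had a Benjamini-Hochberg adjusted p under 0.05 over 13644 genes tested with limma, where 35.8% of all genes passed and 19.2% passed in the higher direction. Every SNx library lay above every NoOp library for each of the 5, an arrangement found for 27.1% of all genes. The median log2 fold change was 2.20 over the 5 genes and 0.01 over all genes tested. In bulk tissue, more cells of a type and more RNA per cell cannot be told apart.

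**Figure D1:**
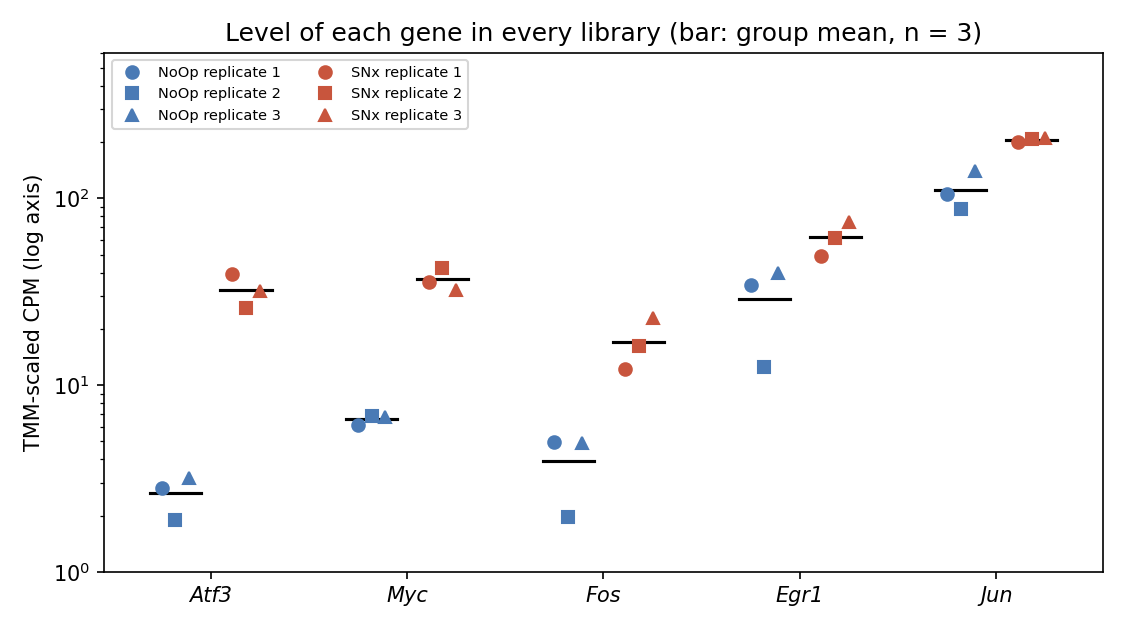
CPM, the counts relative to a library size scaled by TMM (trimmed mean of M-values), on a log axis, for each gene in the 3 NoOp and 3 SNx libraries, with a bar at each group mean. The groups do not overlap for any gene, with the widest gap for Atf3 and the narrowest for Egr1, where NoOp replicate 2 lies far below the other NoOp libraries.

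The libraries held 11183768 to 13140864 estimated counts in NoOp and 9572955 to 10707643 in SNx, so every SNx library was the smaller. The TMM factors, which correct for a few abundant genes taking a large share of the counts, were 0.884 to 0.963 in NoOp and 0.99 to 1.21 in SNx. When libraries were scaled by their size alone, the median over all genes moved to 0.24 on the log2 scale. All 5 genes still passed, with log2 fold changes from 1.14 for Jun to 3.85 for Atf3, where 35.1% of all genes passed. On that scale, 37% of all genes had every SNx library above every NoOp library. The labelled tissue was not checked against kidney markers, since no table used here pairs the identifiers with gene names.

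Atf3, the stress-induced member, had the largest difference. Estimated counts, in replicate order, were 29, 24 and 33 for the controls against 408, 336 and 301 for the SNx animals. In TMM-scaled CPM, the control level was 2.63 ± 0.656 and the SNx level 32.3 ± 6.68 (SD, n = 3 each). The transcript was thus scarce in every control kidney and many times higher in every remnant kidney, and the lowest SNx library exceeded the highest NoOp library by 2.96 on the log2 scale. The log2 fold change of 3.62 had a standard error of 0.33, and its limma adjusted p was 0.00142. A larger log2 fold change was found for 161 genes, or 1.18% of those tested. The lowest NoOp count, 24, carries an exact 95% Poisson interval of 15.4 to 35.7, which covers counting error only. The coefficient of variation of CPM was 25% in NoOp, where counting alone would give 18.7%, and 20.6% in SNx, where counting would give 5.36%. Counting error was thus a larger part of the spread where counts were low.

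Myc, the growth regulator, had the smallest p of the 5 genes, at rank 23 among all genes tested. Its estimated counts were 63, 86 and 70 in the NoOp libraries and 371, 550 and 307 in the SNx libraries, in replicate order. The CPM averaged 6.55 ± 0.37 for controls and 36.9 ± 5.13 for SNx animals (SD, n = 3 each). In the counts the 3 control kidneys lay close together, and SNx replicate 2 was the highest of the remnant kidneys. The coefficient of variation in the controls was 5.65%, below the 11.7% that counting alone would give. Such closeness over 3 libraries does not show that the animals were alike. In the authors' normalized table the controls lay further apart, at 2.35, 2.94 and 2.90 log2 CPM. The log2 fold change reached 2.48 ± 0.19 (standard error; limma adjusted p 0.00108), and 3.32% of genes had a larger one.

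Fos, the AP-1 subunit that needs a partner to bind DNA, had 51, 25 and 51 estimated counts in the controls and 127, 209 and 217 in the SNx animals, again by replicate. The CPM averaged 3.94 ± 1.7 for controls and 17.1 ± 5.41 for SNx animals (SD, n = 3 each). NoOp replicate 2 was low, the other two controls were level, and the SNx animals spread over a range of 1.87-fold. Its log2 fold change came to 2.20 ± 0.42 (standard error; limma adjusted p 0.00731). The SD among the NoOp libraries was 0.72 on the log2 scale, larger than that of 95% of genes tested. Without NoOp replicate 2 the log2 fold change was 1.70 (limma adjusted p 0.0274), the lowest value when 1 library was left out.

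Jun, the other AP-1 subunit and one that can also pair with itself, had 1095, 1103 and 1463 estimated counts in the NoOp libraries and 2074, 2700 and 1987 in the SNx libraries. The CPM averaged 111 ± 27 for controls and 206 ± 5.58 for SNx animals (SD, n = 3 each). The remnant kidneys were nearly level after scaling, at 200, 209 and 210 CPM in replicates 1, 2 and 3, although their counts were not. Their SD of 0.04 on the log2 scale was so small that only 2.78% of genes had a smaller one. The controls differed by 1.61-fold, with NoOp replicate 3 the highest, and it remained 0.51 below the lowest SNx library on the log2 scale. The resulting log2 fold change, 0.91 ± 0.18 (standard error), had a limma adjusted p of 0.00837, and 14.9% of genes had a larger one.

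Egr1, the zinc finger factor, had 352, 158 and 416 estimated counts in the control kidneys and 511, 798 and 706 in the SNx kidneys. The CPM averaged 28.9 ± 14.5 for controls and 61.8 ± 12.7 for SNx animals (SD, n = 3 each). NoOp replicate 3, the highest control, lay 0.30 under the lowest SNx library on the log2 scale, whereas NoOp replicate 2 was far lower, at 12.5 CPM. The log2 fold change stood at 1.28 ± 0.40 (standard error; limma adjusted p 0.0410), with a 95% confidence interval of 0.35 to 2.21. Without NoOp replicate 2 the log2 fold change was 0.70 (limma adjusted p 0.0535), or 1.62-fold in place of 2.42-fold. The adjusted p of Egr1 ranged from 0.0169 to 0.0979 over 15 other settings and was under 0.05 in 7 of them, so its rise is the least firmly placed of the 5.

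**Figure D2:**
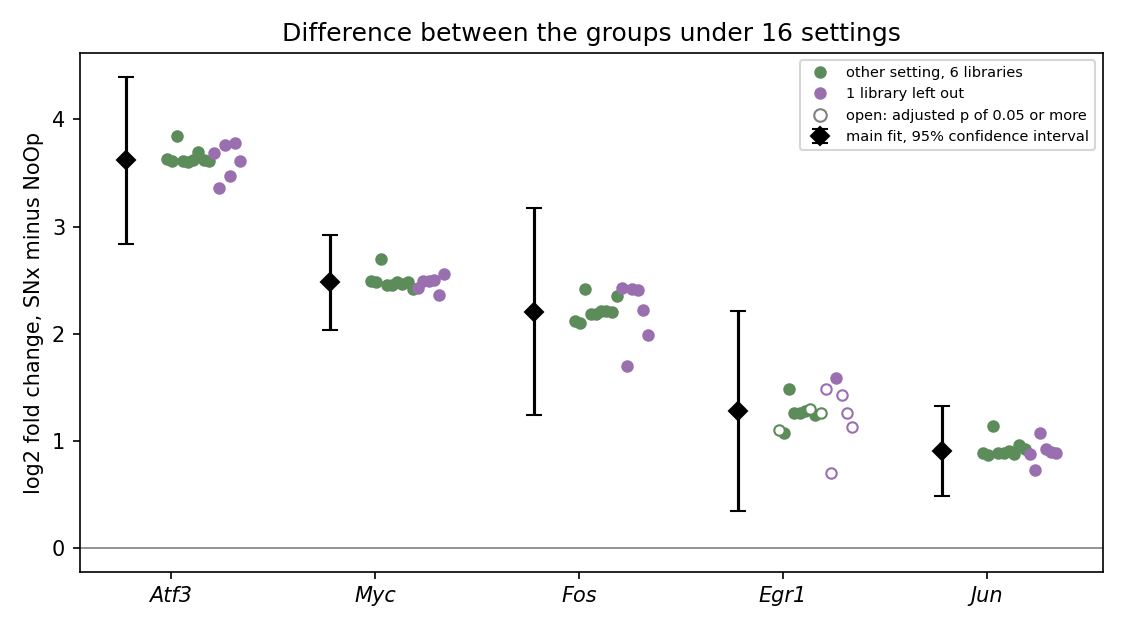
Log2 fold change of each gene, SNx minus NoOp, with a black diamond and 95% confidence interval for the main limma fit, and points for 9 other settings with all 6 libraries and for 6 fits with 1 library left out. Every value is above 0, and open points, with an adjusted p of 0.05 or more, occur for Egr1 alone.

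Whether the genes rose by unequal amounts was asked with the log2 ratio of each pair of genes within a library, which hardly depends on how libraries are scaled. The groups did not overlap for 7 of the 10 pairs. The share without overlap among pairs of other genes was not computed, and the 10 pairs reuse the same 5 genes. With 3 libraries against 3 the exact two-sided permutation p cannot go below 0.1, and these 7 pairs had that p, or 0.143 after Benjamini-Hochberg adjustment over the 10 pairs, so no pair passed 0.05. The ratio of Atf3 to Jun differed most, from -5.31 ± 0.14 among controls to -2.68 ± 0.33 among SNx animals (SD, n = 3 each), a shift of 2.63. The ratio of Atf3 to Myc rose from -1.29 ± 0.40 to -0.20 ± 0.45, a shift of 1.09 without overlap. Fos to Jun, the partners in AP-1, shifted by 1.21 in favour of Fos, and Fos to Egr1 by 0.89, both without overlap. Neighbours in the order of fold change whose ratios overlapped between the groups were Myc and Fos, with a shift of 0.33 (exact permutation p 0.7), and Egr1 and Jun, with 0.32 (exact permutation p 0.6). The shift of Myc to Egr1, 1.22, also came with overlap (exact permutation p 0.2). These ratios compare differences between groups and not the levels of 2 genes, since the lengths of the transcripts enter the counts.

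**Figure D3:**
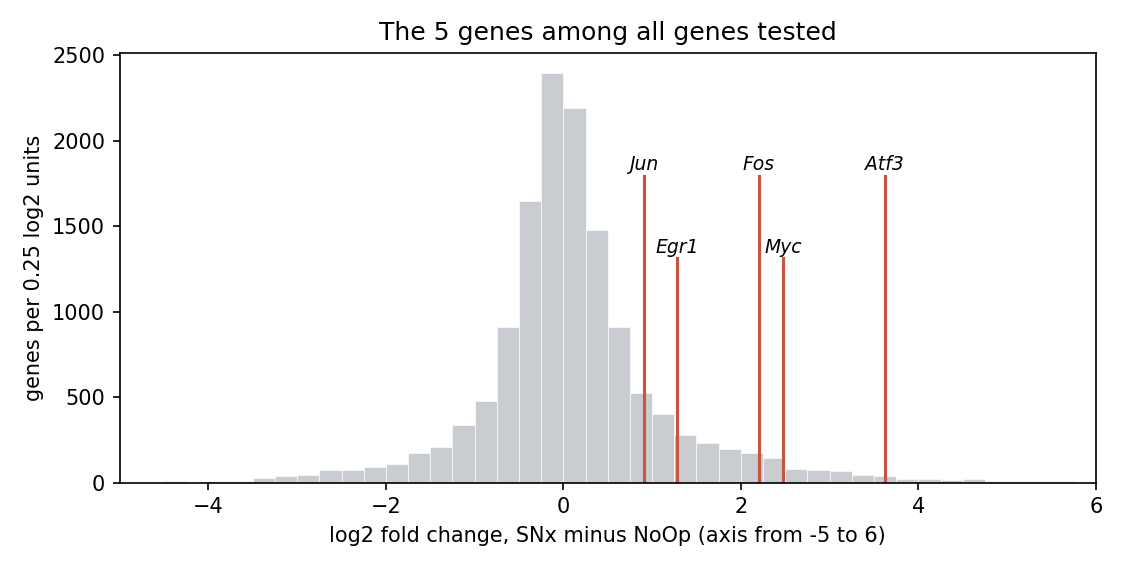
Histogram of the log2 fold change, SNx minus NoOp, of all 13644 genes tested, in bins of 0.25 (axis cut at -5 and 6, with 39 genes outside it), with red lines at the 5 genes, whose heights carry no value. All 5 lie to the right of the centre, Jun with 14.9% of genes above it and Atf3 with 1.18%.

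Within the groups, Fos and Egr1 moved together from animal to animal. After the mean of each group was taken away, Fos deviated by 0.42, -0.83 and 0.41 on the log2 scale in the controls, in replicate order, and Egr1 by 0.41, -1.03 and 0.63. For the SNx animals the deviations were -0.43, -0.03 and 0.47 for Fos and -0.31, 0.02 and 0.29 for Egr1. Both genes were thus lowest in NoOp replicate 2 among the controls, and lowest in replicate 1 and highest in replicate 3 among the SNx animals. The root mean square difference between their deviations over the 6 libraries was 0.15. Of 12490 other genes whose mean log2 CPM was 1 or more, 0 lay nearer to Egr1 than Fos did, and 4 lay nearer to Fos than Egr1 did. This closeness was noticed in the data and is a description over 6 libraries with no test, and genes that vary little cannot lie near a gene that varies much.

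**Figure D4:**
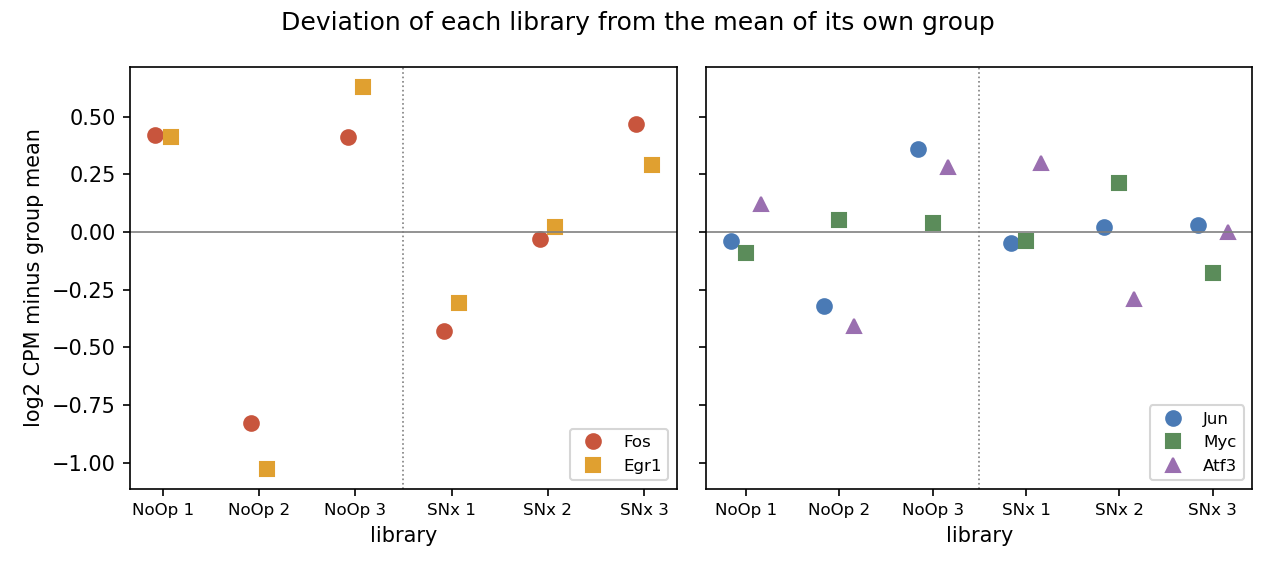
Log2 CPM minus the mean of the library's own group for Fos and Egr1 (left) and for Jun, Myc and Atf3 (right), in the 3 NoOp and 3 SNx libraries. Fos and Egr1 fall to -0.83 and -1.03 in NoOp replicate 2 and rise together to 0.47 and 0.29 in SNx replicate 3, while the deviations of Myc stay between -0.18 and 0.21.

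Jun and Atf3 shared the low value of NoOp replicate 2, with deviations of -0.32 and -0.41, and Myc did not, with 0.05. Among the SNx animals the order differed: Atf3 was highest in replicate 1 with 0.30, Myc in replicate 2 with 0.21, and Fos in replicate 3. The root mean square difference of Jun from Egr1 was 0.39, that of Fos from Jun 0.37, and that of Fos from Myc 0.55. The AP-1 partners Fos and Jun therefore lay further apart within the groups than Fos and Egr1. Jun lay nearer to Atf3, at 0.21, and to Myc, at 0.23, than to Fos. This measure also depends on how much each gene varies, so a smaller value does not show that Jun moved with Atf3 or Myc. The deviation of Jun had the same sign as that of Egr1 in 5 of the 6 libraries. It shared the sign of Fos in 4, of Myc in 4 and of Atf3 in 2.

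For Fos and Egr1, SNx replicates 1 and 3 lay further from the median of the genes with large rises than SNx replicate 2 did. Each SNx library was given a place on a scale from 0%, the control mean, to 100%, the average of the other two SNx libraries. SNx replicate 3 lay at 137% for Fos and 140% for Egr1, at 104% for Jun, 99.8% for Atf3 and 89.6% for Myc. Its median place was 74.9% over 862 genes that rose by at least 2 on the log2 scale, with a limma adjusted p under 0.05, in the fit without it. Fos, Egr1 and Jun rose by 1.99, 1.13 and 0.89 in that fit, so they were not among these genes. On this scale the same log2 shift gives a larger percentage for a gene with a smaller rise, and the spread of the places is not given here. SNx replicate 1 lay at 72.4% for Fos and 66.8% for Egr1, against a median of 104% over 639 genes chosen in the same way. It lay at 113% for Atf3, 97.8% for Myc and 92.8% for Jun. Egr1 and Jun rose by 1.43 and 0.93 in the fit without it, so they were not among the 639. SNx replicate 2 lay at 97.6% for Fos, 102% for Egr1, 103% for Jun, 114% for Myc and 88% for Atf3. Its median was 111% over 572 genes. SNx replicate 3 was thus above the other remnant kidneys for Fos and Egr1, while its median over those 862 genes was below their average. The genes behind each median were picked for high values in the SNx libraries that set the 100% mark. Such a choice can lower the place of the library left out, so the 2 kinds of place are not strictly alike. The order of the animals was not counted gene by gene, and these places rest on 1 animal each and were not tested.

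The library titles carry numbers from 2 separate ranges. In either range, 1 group has a single library, so values within a range carry no test. In the range with SNx replicates 1 and 2 and NoOp replicate 1, the SNx mean was higher by 3.42 for Atf3, 2.63 for Myc, 1.47 for Fos, 0.94 for Jun and 0.68 for Egr1 on the log2 CPM scale. In the range with SNx replicate 3 and NoOp replicates 2 and 3, the corresponding values were 3.60, 2.23, 2.80, 0.92 and 1.73. Atf3, Myc and Jun differed little between the ranges, while Fos and Egr1 had a larger difference in the second, which holds the lowest control and the highest SNx library for both genes. With the range as a term in the limma fit, 32.7% of all genes passed, Atf3, Myc, Fos and Jun among them. Egr1 had a limma adjusted p of 0.0697 there, with a log2 fold change of 1.26.

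The deposited normalized table, the authors' own log2 CPM values, gave log2 fold changes of 3.62 for Atf3, 2.48 for Myc, 2.20 for Fos, 1.24 for Egr1 and 0.96 for Jun. All 5 passed with limma and a mean-variance trend over 12135 genes, Egr1 with an adjusted p of 0.0496. In that fit 36.3% of all genes passed.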

How the data were processed

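Kidney RNA from 3 SNx and 3 NoOp rats was sequenced in strand-specific paired-end libraries. The authors quantified transcripts against an Rn6 transcriptome by selective alignment, summarised them per gene with tximport and applied voom in limma. Salmon and limma are named in the submitters' processing notes, and versions are not given in the sources used here. The deposited raw table holds the authors' estimated counts as whole numbers for 23487 genes. The deposited normalized table holds the authors' log2 CPM values for 12135 genes. The 12 single-library files held the same values and were not used. The methods report RNA integrity over a wide range that reaches very low values, without assigning it to libraries.

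Groups came from the treatment label, and replicates were numbered in order of deposition. The filter was filterByExpr in edgeR 4.0.16 (minimum count 10, minimum total 15), which all 5 members passed. Counts were scaled with TMM and fitted under R 4.3.3 by voom and limma 3.58.1 on group alone. The two-sided p-values were adjusted by Benjamini-Hochberg across the 13644 genes that remained, at a threshold of 0.05. Library values, ratios and deviations used log2 CPM with a prior count of 2. Each library is from 1 animal. The limma p-values set the difference between groups against the spread between libraries, with the variance of each gene drawn towards that of other genes. That spread includes counting error. Near-identical gene copies were not analysed. Fits were tested on simulated counts.

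The members and lists were chosen with earlier results of these data known. The 14 planned lists of pathway and cell type genes were not analysed, because 0 identifiers matched a symbol in the reference tables. The rule for naming genes covers the members, and its part on genes of like pattern asked for a symbol and therefore named none. Alternatives were edgeR's quasi-likelihood test, DESeq2 1.42.0, 2 other scalings, 2 other filters, sample weights, the normalized table, the title range as a term, and each library left out. Leaving out libraries for the ratios, and the count of genes without overlap under library size alone, were added after seeing the data.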

Additional observations from a re-analysis of the deposited data

How the results depend on the processing

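Across other settings, all 75 values of the 5 genes stayed positive, and 67 remained past the threshold. The groups did not overlap for any of the 5, so leaving out 1 library could hardly turn a value negative. Of all genes tested, 20.4% to 42.2% passed in these settings. The 8 that no longer passed were all of Egr1. Its log2 fold change was 1.10 by edgeR's quasi-likelihood test (adjusted p 0.0600), 1.30 with sample weights (limma adjusted p 0.0540) and 1.26 with the title range as a term (limma adjusted p 0.0697), and the cause was not tested. Leaving out 1 library at a time gave 0.70 to 1.59 for Egr1, with an adjusted p under 0.05 only without NoOp replicate 3 (limma adjusted p 0.0394), and a fit on 5 libraries has fewer samples. It gave 1.70 to 2.43 for Fos, 0.73 to 1.08 for Jun, 2.36 to 2.56 for Myc and 3.36 to 3.78 for Atf3. The number of genes called, 4891, was 4399 to 5760 with all 6 libraries kept and 2857 to 5764 when 1 was left out, with 3124 without NoOp replicate 2 and 2857 without NoOp replicate 3. Genes called higher were 53.6% of the calls with TMM and 70.7% with library size alone. For the ratios within a library, 79 of 80 values kept their direction. For the 7 pairs without overlap, leaving out 1 library could not have reversed it. Egr1 to Jun went to -0.03 without NoOp replicate 2, the lowest value with 1 library left out, while the highest was 0.54. No paired analysis was possible because the labels give no pairing of SNx and NoOp animals.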

Other observations

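The deposited tables differed most for Myc among the 5 genes. The log2 CPM from the counts minus the normalized value ranged from -0.20 to 0.31 over the 6 libraries, a range of 0.50 against a median range of 0.05 over 12118 genes, and 4.08% of genes had a larger one. In the normalized table Myc stood at 2.35, 2.94 and 2.90 in NoOp replicates 1, 2 and 3, against 2.66, 2.80 and 2.79 from the counts, so the close agreement of the control kidneys for Myc depends on the table. Its log2 fold change was 2.48 from either table. For Egr1 the range was 0.03, and the low value of NoOp replicate 2 appeared in both tables, at 3.64 in the normalized table and 3.66 from the counts.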
